A study of Drosophila melanogaster with 3 samples.

Results

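Near intronic summits of the transcription factor Scalloped (sd) numbered 2468 of the 10553 summits in the list of reproducible peaks, those that passed the authors' threshold on the irreproducible discovery rate (IDR). A summit is the base of highest signal in a peak. Near intronic summits lay inside an annotated gene, outside every exon, and over 500 but no more than 3000 bp from the nearest transcription start site (TSS) of any gene, transposable elements left out. They were set beside 2334 far intronic summits, which lay over 3000 bp from any TSS, 4029 TSS summits within 500 bp of one, and 1341 intergenic summits. The other 381 summits were exonic.

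The peaks came from chromatin immunoprecipitation and sequencing (ChIP-seq) of whole *Drosophila melanogaster* embryos, males and females pooled, aged 4 to 20 h. All 3 samples were biological replicates of 1 group: a transgenic line that stably expresses sd with green fluorescent protein at its C terminus, precipitated with an antibody against that tag. No contrast between conditions was therefore possible, and the promoter that drives the fusion was not given in the sources used here. Every cell type of the embryo contributed to each sample, so a strong site in few cells and a weak site in many cannot be told apart.

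Scalloped is the fly member of the TEA-domain family of transcription factors. It does not activate genes alone but recruits partners, among them Yorkie, the coactivator held in check by the Hippo growth-control pathway, Vestigial in wing and muscle, and the repressor Tgi. Introns near a start site are a common place for fly enhancers, the stretches of DNA where such factors control when and where a gene is transcribed.

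The DNA under 9 of the strongest near intronic summits that held CATTCC, the core site of TEA-domain factors, is shown to let the site be seen in place. Each line gives a summit with 100 bp to either side, on the plus strand of dm6 from the BDGP assembly, under the name of the gene whose intron holds it. Capitals mark CATTCC or its reverse complement GGAATG.
mld (chr3R:24586710-24586910): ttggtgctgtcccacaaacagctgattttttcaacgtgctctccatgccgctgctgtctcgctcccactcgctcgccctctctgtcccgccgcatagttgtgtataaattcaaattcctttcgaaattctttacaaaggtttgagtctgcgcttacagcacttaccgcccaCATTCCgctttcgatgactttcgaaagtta
spi (chr2L:19576168-19576368): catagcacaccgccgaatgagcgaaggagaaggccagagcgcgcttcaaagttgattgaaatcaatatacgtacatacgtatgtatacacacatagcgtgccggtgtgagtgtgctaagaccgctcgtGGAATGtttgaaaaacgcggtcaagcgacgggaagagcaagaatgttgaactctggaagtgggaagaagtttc
ush (chr2L:481005-481205): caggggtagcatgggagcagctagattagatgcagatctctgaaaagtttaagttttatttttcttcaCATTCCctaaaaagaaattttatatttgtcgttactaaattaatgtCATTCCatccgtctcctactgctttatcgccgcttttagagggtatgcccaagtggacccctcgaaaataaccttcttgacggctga
bab1 (chr3L:1098591-1098791): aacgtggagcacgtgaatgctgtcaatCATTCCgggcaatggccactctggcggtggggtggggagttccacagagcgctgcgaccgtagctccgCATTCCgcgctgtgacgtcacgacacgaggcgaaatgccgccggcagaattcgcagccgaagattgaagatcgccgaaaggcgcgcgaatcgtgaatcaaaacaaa
CG42327 (chr3R:11657858-11658058): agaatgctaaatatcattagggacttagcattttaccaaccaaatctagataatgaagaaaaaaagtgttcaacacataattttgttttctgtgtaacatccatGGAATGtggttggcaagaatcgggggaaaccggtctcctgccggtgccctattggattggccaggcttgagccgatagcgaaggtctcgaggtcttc
crp (chr2L:16286715-16286915): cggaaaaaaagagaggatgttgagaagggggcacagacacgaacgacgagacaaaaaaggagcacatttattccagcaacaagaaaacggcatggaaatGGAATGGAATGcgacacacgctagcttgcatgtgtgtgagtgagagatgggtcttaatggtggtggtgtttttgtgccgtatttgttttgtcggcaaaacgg
Atpalpha (chr3R:20957007-20957207): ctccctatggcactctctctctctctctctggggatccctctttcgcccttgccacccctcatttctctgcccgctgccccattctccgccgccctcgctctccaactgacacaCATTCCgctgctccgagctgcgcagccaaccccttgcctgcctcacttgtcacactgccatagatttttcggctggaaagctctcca
pot (chrX:11915253-11915453): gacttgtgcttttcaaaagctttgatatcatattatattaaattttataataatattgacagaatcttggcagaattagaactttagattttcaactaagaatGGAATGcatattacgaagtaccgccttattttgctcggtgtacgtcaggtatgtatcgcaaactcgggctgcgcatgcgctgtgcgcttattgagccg
wts (chr3R:30804232-30804432): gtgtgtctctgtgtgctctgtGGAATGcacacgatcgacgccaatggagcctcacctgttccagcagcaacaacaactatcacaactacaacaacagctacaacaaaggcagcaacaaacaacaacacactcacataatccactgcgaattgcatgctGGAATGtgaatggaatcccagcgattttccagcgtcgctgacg

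In 6 of these 9 windows the nearest core site began no more than 15 bp from the summit, at its closest 1 bp to the left in crp and 3 bp to the right in pot. In mld it began 71 bp to the right and in wts 58 bp to the right. The windows of ush, bab1, crp and wts held 2 cores each, and those in crp overlapped by a shared base in 1 orientation. Base composition varied widely: 37.3% of the bases were G or C in pot and 59.7% in Atpalpha.

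A second short site, that of GATA factors, zinc-finger proteins that act in blood, gut, heart and epidermis, was searched as AGATAA or TGATAA on both strands. Among the strongest near intronic summits with no CATTCC and at least 2 such sites, 3 lay in p130CAS, CG12065 and CLIP-190, which were chosen after their values were seen. Capitals mark AGATAA or TGATAA or their reverse complements TTATCT and TTATCA.
p130CAS (chr3L:156655-156855): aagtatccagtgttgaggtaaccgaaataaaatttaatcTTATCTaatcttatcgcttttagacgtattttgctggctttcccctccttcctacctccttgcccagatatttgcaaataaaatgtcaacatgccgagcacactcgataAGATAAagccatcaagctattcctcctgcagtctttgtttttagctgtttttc
CG12065 (chrX:8575093-8575293): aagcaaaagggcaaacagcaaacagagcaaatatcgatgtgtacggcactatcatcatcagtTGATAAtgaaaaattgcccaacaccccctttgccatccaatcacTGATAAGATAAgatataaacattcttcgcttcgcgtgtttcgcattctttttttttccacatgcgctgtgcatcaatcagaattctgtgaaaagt
CLIP-190 (chr2L:17390885-17391085): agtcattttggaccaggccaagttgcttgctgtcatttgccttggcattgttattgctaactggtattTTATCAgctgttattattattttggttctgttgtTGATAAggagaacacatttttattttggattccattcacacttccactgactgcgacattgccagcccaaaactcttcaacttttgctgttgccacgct

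In CG12065 the window held 3 GATA sites, of which 2 overlapped, the first beginning 6 bp to the right of the summit. The summits in p130CAS, CG12065 and CLIP-190 ranked 247, 269 and 405 in the IDR list.

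The strongest near intronic summit of all lay in intron 1 of mld, which encodes a zinc-finger protein needed to make the moulting hormone ecdysone. At chr3R:24586810, it was 1157 bp downstream of the gene's start and ranked 3 of 10553. Its signal value, a number that the authors' peak caller gives each peak and that can be compared only within a list, was 7261 in replicate 1, 6448.5 in replicate 2 and 9689 in replicate 3. It ranked 3, 2 and 3 there. In the pooled IDR list its value was 23314, against a median of 561 for near intronic summits.

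The next strongest host was mts, which encodes the catalytic subunit of protein phosphatase 2A. Its summit had signal values of 2172.6, 2086 and 2958 in replicates 1 to 3 and ranked 23, 13 and 19. In shn, the zinc-finger cofactor of the Smad protein Mad in Dpp signalling, the strongest summit ranked 18, 38 and 20. That in lncRNA:CR44810, a noncoding gene, ranked 25, 26 and 26, so it kept its place in all 3 lists. The summit in spi, which encodes the main ligand of the EGF receptor, lay 681 bp upstream of the nearest spi start and ranked 22, 36 and 28.

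Of the 25 strongest near intronic summits, taking 1 per host gene, all were among the top 240 peaks of each replicate. The 25 were picked by signal in the IDR list, which pools these replicates, so high ranks in each were largely fixed in advance. The summit in Tlk, a chromatin-associated kinase, ranked 33, 74 and 33. In ush, a partner protein of GATA factors, the strongest summit ranked 60, 59 and 51. The nearest TSS to it was that of cbt, a gene whose start lies inside ush. In cno, which encodes the adherens-junction protein afadin, the ranks of 38, 119 and 52 spread more widely. The widest gap between replicates among these 25 was in crp, a bHLH factor gene, with ranks of 92, 240 and 144.

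**Figure D1:**
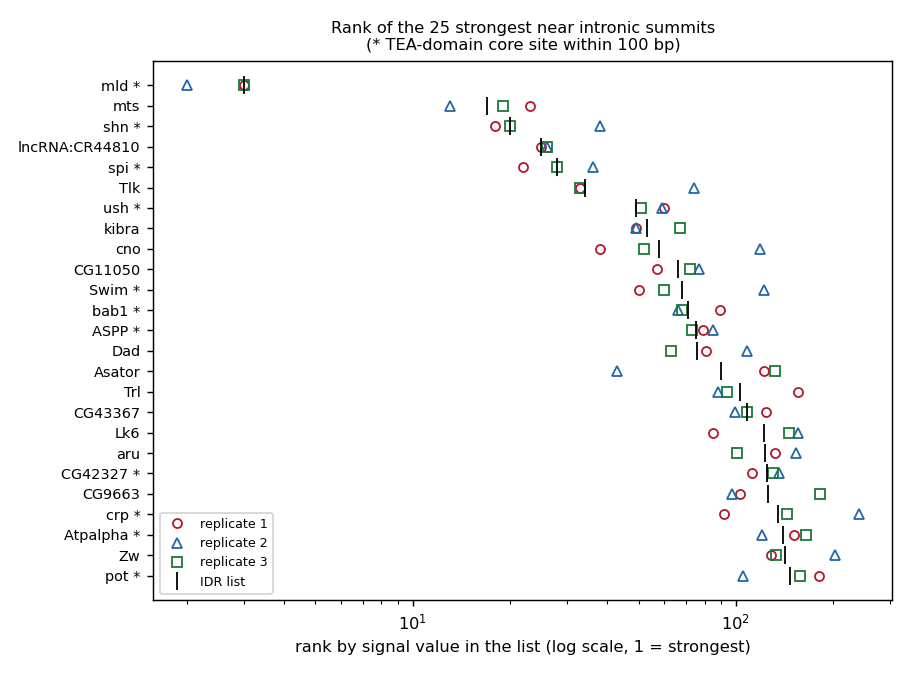
Rank by signal value of the 25 strongest near intronic summits, 1 per host gene, in each replicate list (symbols) and in the pooled IDR list (bars), on a log scale where 1 is the strongest peak. The 3 replicate ranks of mld lie at 2 and 3, those of crp between 92 and 240. Asterisks mark summits with CATTCC within 100 bp.

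The rest of the 25 came from genes of varied roles. They included bab1, a transcription factor gene whose summit ranked 89, 66 and 68. Dad, the inhibitory Smad induced by Dpp, ranked 81, 108 and 63. Trl, which encodes the GAGA factor, ranked 156, 88 and 94. Lk6, a kinase downstream of MAP kinase signalling, ranked 85, 156 and 146. Atpalpha, the sodium pump subunit, ranked 151, 120 and 165. Zw, which encodes glucose-6-phosphate dehydrogenase, ranked 128, 202 and 133, and pot, a zona pellucida-domain protein of the cuticle surface, ranked 181, 105 and 158. The remaining hosts were CG11050, Swim, ASPP, Asator, CG43367, aru, CG42327 and CG9663. CATTCC lay within 100 bp of the summit in 11 of the 25.

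Genes of the Hippo pathway held several strong near intronic summits. kibra, an upstream activator of the pathway, had 3, all in intron 1 and all without CATTCC within 100 bp. The strongest, at chr3R:14722360, had signal values of 1762.6, 1330 and 2061 in replicates 1 to 3, ranks of 49, 49 and 67, and lay 1901 bp downstream of the start. The second, close by at chr3R:14722565, ranked 436, 1146 and 722, so the replicates ordered it less closely.

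wts, the kinase that inactivates Yorkie, had 2 near intronic summits. The stronger, printed above, ranked 138, 234 and 164 with signal values of 1271, 738 and 1472, and the other ranked 384, 323 and 310. Tgi, the repressive Scalloped partner, had 3, of which the strongest held 2 core sites and ranked 265, 796 and 333. Its weakest was not found in replicate 1 and ranked 18111 in replicate 2 and 10075 in replicate 3.

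ex, an upstream pathway gene and a known Yorkie target, had 5 near intronic summits. The strongest ranked 183, 543 and 234, and 1 of the 5 held core sites. For 4 of the 5 the nearest TSS was that of lncRNA:CR43717, a noncoding gene whose start lies inside ex, and not that of ex itself. Diap1, which encodes an inhibitor of cell death, had 5 as well. The strongest of these, 874 bp upstream of a Diap1 start, held 1 core site and ranked 369, 546 and 484.

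The gene sd itself had 2 near intronic summits. The stronger, at chrX:15816991, held 2 core sites and ranked 443, 1030 and 467, and the weaker, at chrX:15817203, ranked 4479, 9875 and 6005. The embryos carry a tagged sd insertion, whose part in the signal at sd was not tested. CycE, a cell-cycle gene, had 1 near intronic summit, which ranked 3701 in replicate 2 and 7202 in replicate 3 and was not found in replicate 1. The genes vg and yki had none in 1994 and 986 bp of eligible intron, and mir-ban, a microRNA gene, has no eligible intron.

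Near intronic summits were unevenly spread over genes, and whether more so than intron length gives was not tested. They fell in 1311 host genes, of which 1290 were protein-coding, and 724 host genes held 1 summit each. shn held the most, with 15 in 10 separate intervals, and 5 of these held CATTCC. Their IDR ranks ran from 20 to 8463, and the weakest ranked 11807, 7902 and 17247 in the replicates. The host genes with 12 each were tna, a regulator of homeotic genes, CG32264, and SNF4Agamma, the gamma subunit of the AMP-activated kinase. Tlk and Svil, an actin-binding protein gene, held 11 each. Next were Eip75B, an ecdysone-induced nuclear receptor, with 10, CHES-1-like, a forkhead factor gene, and Sarm with 8 each, and CG5953, 1 of 8 host genes with 7. These 10 hosts were long, from 24.8 kb in CG5953 to 121.6 kb in Svil.

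By position, 1637 near intronic summits (66.3%, 95% Clopper-Pearson interval 64.4 to 68.2%) lay downstream of the nearest TSS and 831 upstream. Exact intervals here treat neighbouring peaks as independent and cover counting error only. The nearest TSS belonged to a gene that spans the summit for 81.0%, and to a protein-coding gene for 88.6%. For 224 it was that of a noncoding RNA gene and for 34 that of a tRNA gene. Of the 1463 summits downstream of the start of a gene that spans them, 1269 (86.7%) were in the first intron of one of its transcripts. The rule for the class itself makes places downstream of a start and in first introns likely. The share of eligible intron at such places was not computed, so no preference can be read from these shares. The nearest TSS had an IDR summit of its own within 500 bp for 1128 (45.7%).

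Near intronic summits with and without a bound nearest TSS did not detectably differ. CATTCC was within 100 bp in 19.6% of summits with a bound TSS and in 20.3% of those without (adjusted p = 0.73, two-sided Fisher's exact test). Of those with a bound TSS 52.7% had a signal above the IDR list's median, against 49.4% of those without (adjusted p = 0.39, Fisher's exact test). Summits upstream of the nearest TSS held CATTCC in 19.0% of cases, and those downstream in 20.5% (adjusted p = 0.73, Fisher's exact test, adjusted over 6 tests).

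Eligible intron made up 16.8 Mb, or 12.5% of the arms, and held 147 near intronic summits per Mb. The top 10553 peaks of replicates 1, 2 and 3 gave 150, 139 and 147 per Mb. Far intronic sequence held 64.7 per Mb, sequence within 500 bp of a TSS 222 per Mb and intergenic sequence 36.8 per Mb. In replicate 2 the TSS class was larger, at 42.6% of top peaks against 36.9% in replicate 1 and 38.6% in replicate 3, and the near intronic class smaller, at 22.1% against 23.8% and 23.3%. No placement test was made, and open chromatin was not measured in these samples.

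Density was lower farther from the start site within the class. It was 178 summits per Mb from 500 to 1000 bp, 157 from 1000 to 1500, 137 from 1500 to 2000, 132 from 2000 to 2500, and 110 from 2500 to 3000 bp. The same order was seen in each replicate, with 180, 172 and 178 per Mb in the nearest bin and 116, 102 and 110 in the farthest.

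The share with a signal above the IDR median was 54.5% from 500 to 1000 bp and 46.8% from 2000 to 3000 bp (adjusted p = 0.0085, two-sided Fisher's exact test). The share with CATTCC was 21.3% in the near range and 21.4% in the far range (adjusted p = 1.0, Fisher's exact test). The GATA site was in 32.7% in the near range and 28.9% in the far range (adjusted p = 0.20, Fisher's exact test).

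**Figure D2:**
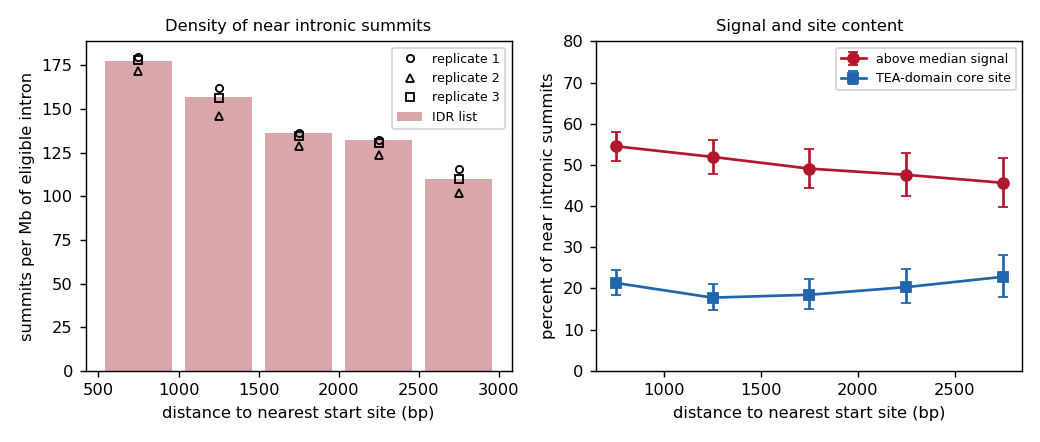
Left, near intronic summits per Mb of eligible intron by distance to the nearest start site, in bins of 500 bp, for the pooled IDR list (bars) and the top peaks of each replicate (symbols); density is 178 per Mb in the nearest bin and 110 in the farthest. Right, the percent of near intronic summits above the IDR median signal (54.5% in the nearest bin, 45.7% in the farthest) and with the TEA-domain core CATTCC within 100 bp, with 95% Clopper-Pearson intervals.

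At the lower boundary the choice of 500 bp cut through summits of like strength. Between 500 and 600 bp, 165 near intronic summits had a median signal of 566, and the 151 intronic summits from 400 to 500 bp, just outside, had 561. Between 2900 and 3000 bp there were 56 with a median of 507 and CATTCC in 33.9%, and just outside, from 3000 to 3100 bp, there were 49 with a median of 681 and CATTCC in 18.4%.

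Among arms, 2R held 178 near intronic summits per Mb, 3L 156, 3R 150, 2L 134 and X 126. Chromosome 4 held 2, in 0.200 Mb, or 9.99 per Mb, and 1 of them, in Asator, ranked 90. In the replicates the density was 171 ± 10.3 per Mb on 2R, 158 ± 4.06 on 3L, 148 ± 4.85 on 3R, 134 ± 6.79 on 2L and 123 ± 3.72 on X (SD, n = 3). The order of these 5 arms was the same in each replicate, and only the ranges of 2R and 3L overlapped.

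Near intronic summits were intermediate in strength. Their median signal was 561, with quartiles of 399 and 918, against 513 for far intronic, 601 for TSS and 500 for intergenic summits. A signal above the IDR median was found in 1256 near intronic summits (50.9%, 48.9 to 52.9%). The share was higher than in far intronic summits (44.4%, adjusted p = 1.1e-05) and intergenic summits (42.4%, adjusted p = 1.8e-06), and lower than in TSS summits (55.4%, adjusted p = 4.5e-04; two-sided Fisher's exact tests, adjusted over 3). Ranked within each replicate's own top peaks, it was 50.6 ± 1.37%, against 44.0 ± 0.590% for far intronic, 55.5 ± 0.904% for TSS and 42.5 ± 1.63% for intergenic summits (SD, n = 3). The near intronic range overlapped none of the others. Among the 25, 100 and 1000 strongest IDR peaks, 4, 16 and 235 were near intronic.

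Of the near intronic summits, 2287 (92.7%) had a summit within 100 bp in all 3 replicate lists of 30000 peaks, 162 in 2, 18 in 1, and 1 in none. The IDR list keeps peaks that reproduce between replicates, so such recurrence was largely fixed in advance. On this measure the ratio was 1.00 to far intronic, 1.04 to TSS and 0.998 to intergenic summits. In the top 10553 peaks of all 3, 69.0% recurred, against 66.4% of far intronic (adjusted p = 0.090), 68.0% of TSS (adjusted p = 0.43) and 64.4% of intergenic summits (adjusted p = 0.013), by two-sided Fisher's exact tests. These comparisons did not hold up: over the alternatives the ratio of near intronic to far intronic shares ran from 0.986 to 1.06, that to TSS shares from 0.949 to 1.19 and that to intergenic shares from 0.988 to 1.09.

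CATTCC lay within 100 bp of 493 near intronic summits (20.0%, 18.4 to 21.6%) and in 8.81% of 3156 flanking windows of the same length, taken 1000 to 1200 bp to either side. This 2.27-fold excess passed the test (adjusted p = 1.7e-31, two-sided Fisher's exact test, adjusted over 60 motif tests). In the top peaks of replicates 1, 2 and 3 the shares were 20.1%, 18.8% and 19.5%, and their flanks had 8.99%, 8.93% and 8.96%. Core sites stood at 1.60 per kb within 50 bp of near intronic summits, 3.29 times the 0.487 per kb found beyond 500 bp.

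**Figure D3:**
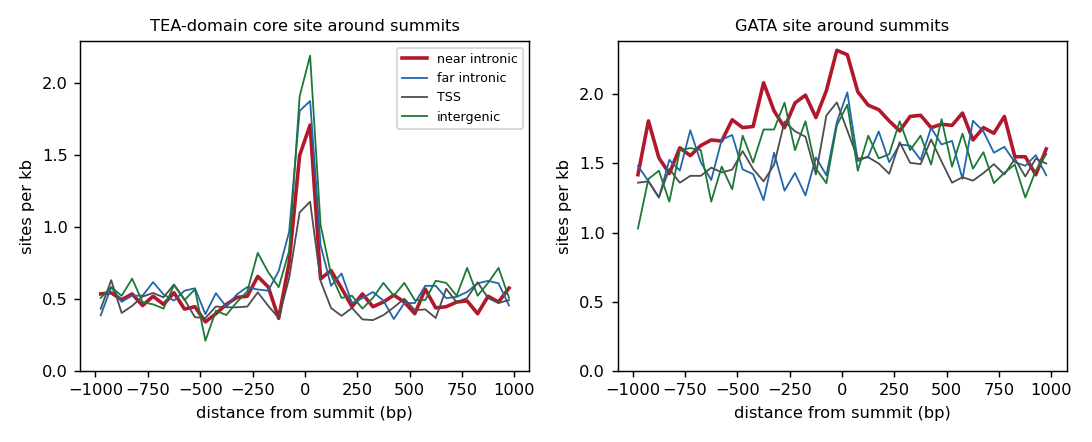
Sites per kb in bins of 50 bp by distance from the summit, for the TEA-domain core (left) and the GATA site (right), at near intronic (red, thick), far intronic, TSS and intergenic summits. The core stands at 1.60 per kb within 50 bp of near intronic summits, lower than at far intronic (1.84) and intergenic (2.05) and higher than at TSS summits (1.14). GATA sites stand highest at near intronic summits (2.30 per kb within 50 bp).

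The core was less frequent at near intronic than at far intronic summits (20.0% against 23.2%, adjusted p = 0.0196) and intergenic summits (25.7%, adjusted p = 4.1e-04), and more frequent than at TSS summits (15.8%, adjusted p = 1.2e-04), by two-sided Fisher's exact tests. Over replicates the shares were 19.5 ± 0.663% near intronic, 23.2 ± 0.817% far intronic, 24.7 ± 1.16% intergenic and 15.1 ± 0.745% at TSSs (SD, n = 3). The near intronic range overlapped none of these 3, but did overlap that of exonic summits (20.6 ± 0.647%). The far intronic difference missed the threshold when only protein-coding genes defined the classes (adjusted p = 0.082, ratio 0.892, Fisher's exact test). It also missed the threshold in windows of 50 bp (adjusted p = 0.14, ratio 0.881, Fisher's exact test). The same counts missed it when adjusted over all sequences of the core's length (adjusted p = 0.22, Fisher's exact test). The TSS difference missed it with a lower bound of 1000 bp (adjusted p = 0.086, ratio 1.14) and among IDR peaks above the median signal (adjusted p = 0.078, ratio 1.16; Fisher's exact tests). The longer site, CATTCC preceded by A or G and followed by A or T, was found at 8.87% of near intronic summits, against 2.69% of their flanks, 11.3% of far intronic, 6.88% of TSS and 12.8% of intergenic summits, and each difference passed. CTACTC, a permutation of the core's letters, was at 3.57% of near intronic summits and 3.87% of flanks, and none of its 4 comparisons passed.

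AATTCC, which differs from the core only in its first base, was the 6-mer that set near intronic summits apart from their flanks with the lowest p. It was in 24.1% of summit windows against 10.6% of flanks (adjusted p = 5.0e-38, Fisher's exact test over all 6-mers). The excess did not come from windows that also hold CATTCC. Among windows without CATTCC, 24.6% of near intronic summits held AATTCC against 10.3% of flanks, a ratio of 2.39 (adjusted p = 6.8e-39, Fisher's exact test over 12 tests chosen after the motif results were seen). Either 6-mer was in 39.7% of near intronic summits and 18.2% of flanks.

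Outside windows with CATTCC, the 6-mer AATTCC did not separate the classes at this number of summits: 24.6% of near intronic, 26.4% of far intronic (adjusted p = 0.29), 23.3% of TSS (adjusted p = 0.33) and 26.1% of intergenic summits (adjusted p = 0.43, Fisher's exact tests). The neighbours GATTCC (7.82% of near intronic summits, 7.73% of flanks, adjusted p = 0.97) and GGAATA (8.35% and 8.71%, adjusted p = 0.79, Fisher's exact test) did not pass against flanks.

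The share with CATTCC went with strength inside the class. Of the strongest of 5 groups by signal (493 summits, 1048 to 23314), 26.0% held CATTCC, and of the weakest (494 summits, 308 to 375), 16.6% did (adjusted p = 0.0010, two-sided Fisher's exact test). The groups between held 21.1%, 19.9% and 16.4%, from stronger to weaker. AATTCC was in 31.4% of the strongest group against 18.0% of the weakest (adjusted p = 4.1e-06), and the GATA site in 33.5% against 26.7% (adjusted p = 0.044; Fisher's exact tests over the same 12). The groups between held the GATA site in 35.2%, 31.2% and 33.2%, from stronger to weaker, so its share did not fall steadily with strength. Even in the strongest group, most near intronic summits held no CATTCC.

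Of all near intronic summits, 1975 held no CATTCC, 430 held 1, 59 held 2 and 4 held 3 or more. In 69 neighbouring pairs of cores, 48 pairs ran in the same orientation. The most frequent spacing between starts was 5 bp, in 7 pairs, the arrangement printed above for crp. Relative to the host gene, 322 cores ran on the coding strand and 240 on the other (57.3%, 53.1 to 61.4%, two-sided exact binomial p = 6.2e-04). Cores of the same window were counted as independent there, although such pairs often ran the same way, and the p was not adjusted. In the flanks the split was 158 and 147, and summits and flanks did not differ in it (p = 0.13, Fisher's exact test).

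GATA sites, singled out after the motif results were seen, were more frequent at near intronic summits than at far intronic, TSS and intergenic summits and in their own flanks. AGATAA or TGATAA was within 100 bp of 789 near intronic summits (32.0%, 30.1 to 33.9%), against 25.3% of far intronic (adjusted p = 3.2e-06), 27.4% of TSS (adjusted p = 4.1e-04) and 24.98% of intergenic summits (adjusted p = 4.8e-05), and 23.3% of near intronic flanks (adjusted p = 7.0e-12), by two-sided Fisher's exact tests. In replicates 1, 2 and 3 the share was 32.3%, 30.9% and 32.2%, against 25.4%, 26.1% and 25.6% of far intronic, 27.6%, 27.2% and 27.4% of TSS and 24.8%, 25.7% and 25.1% of intergenic summits. The near intronic share was the highest of these 4 classes in each replicate. Bases of G or C made up a median of 41.3% of near intronic windows, 41.8% of far intronic and TSS windows and 42.8% of intergenic windows.

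The GATA site was also frequent farther from near intronic summits. Its density was 2.30 per kb within 50 bp of near intronic summits and 1.64 per kb beyond 500 bp, a ratio of 1.40, against 1.91 and 1.54 at far intronic summits, a ratio of 1.24. The ratio was 1.29 at TSS summits and 1.29 at intergenic summits. Exon bases were in 35.9% of the near intronic flanks. In flanks with none, 26.7% held a GATA site, which left a ratio of 1.20 to near intronic summits (p = 1.2e-04, Fisher's exact test), and 9.14% held CATTCC, a ratio of 2.19. In flanks without exon bases at the other classes, the GATA site was in 23.5% for far intronic, 28.0% for TSS and 22.4% for intergenic summits. Against such flanks of their own, the ratio was 1.08 for far intronic (p = 0.13), 0.978 for TSS (p = 0.60) and 1.12 for intergenic summits (p = 0.11, Fisher's exact tests).

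GATA and TEA-domain sites were not detectably tied to each other. CATTCC was in 18.0% of the 789 near intronic summits with a GATA site and in 20.9% of the 1679 without (adjusted p = 0.16, Fisher's exact test). Both were present at 142 summits, CATTCC alone at 351, the GATA site alone at 647 and neither at 1328.

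**Figure D4:**
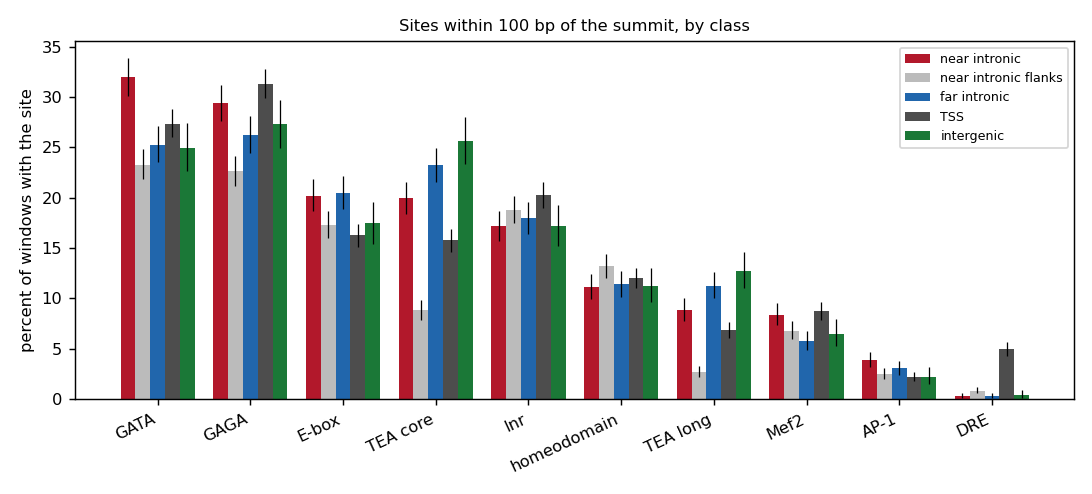
Percent of windows of 100 bp to either side that hold a site, for near intronic summits (red), their flanks (grey), and far intronic, TSS and intergenic summits, with 95% Clopper-Pearson intervals. The GATA site is in 32.0% of near intronic windows, the highest of the 5 groups, and the DRE in 0.324%, against 4.96% at TSS summits.

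The DNA replication-related element TATCGATA (DRE), bound at housekeeping promoters, was in 0.324% of them and in 4.96% of TSS summits (adjusted p = 9.0e-31, Fisher's exact test). The initiator, searched as TCAGTC or TCAGTT, was in 17.2% and 20.3% (adjusted p = 0.0089, Fisher's exact test). GAGAG, bound by the GAGA factor, was in 29.4% of near intronic summits, against 22.7% of flanks (adjusted p = 1.4e-07), 26.3% of far intronic (adjusted p = 0.045) and 31.3% of TSS summits (adjusted p = 0.17, Fisher's exact tests).

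The Mef2 site, bound by the myogenic factor Mef2, was in 8.39% of near intronic summits, against 5.74% of far intronic (adjusted p = 0.0017), 8.74% of TSS (adjusted p = 0.83) and 6.49% of intergenic summits (adjusted p = 0.077), and 6.78% of flanks (adjusted p = 0.059, Fisher's exact tests). The AP-1 site, TGACTCA or TGAGTCA, was in 3.89%, against 2.50% of flanks (adjusted p = 0.012), 2.18% of TSS (adjusted p = 4.1e-04), 2.24% of intergenic (adjusted p = 0.018) and 3.04% of far intronic summits (adjusted p = 0.19, Fisher's exact tests). The E-boxes CATATG and CATGTG and CACATG and CACGTG were in 20.2%, against 17.3% of flanks (adjusted p = 0.018), 16.3% of TSS (adjusted p = 3.9e-04) and 20.5% of far intronic summits (adjusted p = 0.98, Fisher's exact tests). The homeodomain core TAATTA was less frequent than in flanks, in 11.1% against 13.2% (adjusted p = 0.049, Fisher's exact test). Sites for Su(H), Zelda, POU factors and Grainyhead did not pass in any of their 16 comparisons.

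Across all 6-mers, each joined with its reverse complement, near intronic and far intronic summits were close. Of the 6-mers, 7 (0.337%) were more frequent near and 1 (0.0481%) less frequent (Fisher's exact tests, adjusted p under 0.05). Of the 7, 4 held the letters GATA or their reverse complement. The first, CTTATC, the reverse complement of GATAAG, was in 17.8% of near intronic and 12.4% of far intronic summits (adjusted p = 5.1e-04, Fisher's exact test), and the others were CTGATA and GATAAC and TGATAA. The 6-mers CCGTTA (4.82% against 2.57%, adjusted p = 0.016), AGAGAG (15.4% against 11.5%, adjusted p = 0.030) and AGATTA (9.12% against 6.21%, adjusted p = 0.047, Fisher's exact tests) completed the list. AGATAC, which also holds the letters GATA, was the 1 less frequent, in 9.97% against 14.1% (adjusted p = 0.011, Fisher's exact test). CATTCC did not pass in this scan, at 20.0% against 23.2% (adjusted p = 0.22, Fisher's exact test).

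Against TSS summits, 12.2% of 6-mers were more frequent near intronic and 12.2% less frequent. Runs of C or G led the first group, such as GGGGGA (12.1% against 6.28%), with CATAAA (27.2% against 18.6%). The second was led by parts of the DRE, such as TATCGA (7.05% against 16.4%), and by GGTCAC (3.36% against 8.76%). Against their own flanks, 10.9% of 6-mers were more frequent at near intronic summits and 12.6% less frequent, and in flanks without exon bases 10.1% and 8.8%. After AATTCC and CATTCC, the leaders were the overlapping ATTCCA (23.4% against 12.2%), AAATTC (30.2% against 18.8%) and the repeat CACACA (27.1% against 16.9%).

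Genes with a near intronic summit were counted in 16 lists of pathway and tissue genes. Of 9085 protein-coding genes with any eligible intron, 14.9% held a summit, but the median gene had only 0.436 kb of it. Of the 3353 genes with at least 1000 bp of eligible intron, 37.7% did. The second share is nearer to the lists, whose median gene had from 0.803 to 8.31 kb. No list was tested, and nothing is said to be particular to one.

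Genes of the Dpp pathway, which patterns the back of the embryo, held a summit in 7 of 11 cases, at 378 per Mb of their eligible intron, against 150 per Mb for all protein-coding genes. After shn and Dad came the receptor gene tkv, best rank 1235, and Mad, best rank 1726. dpp itself had 2 summits, and wit and sog 1 each. EGF receptor pathway genes held one in 7 of 14, at 404 per Mb. Besides spi they were the repressors aop (4 summits, best rank 281) and sty (6, best rank 336), the factor gene pnt (5, best rank 1355), Egfr (5), drk (4) and S (1).

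Hippo pathway genes held a summit in 9 of 25 cases and described Yorkie and Scalloped targets in 8 of 18, at 291 and 364 per Mb. Beyond those above, the Hippo genes were Sik3, par-1, app and crb. The targets included InR, the insulin receptor gene, with 5 summits (best rank 307), and E2f1, the cell-cycle factor gene, with 5 (best rank 1209). These target genes are listed because earlier work tied them to Scalloped or Yorkie.

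Ecdysone response and nuclear receptor genes held a summit in 10 of 14 cases, at 237 per Mb, in the longest eligible introns of any list (median 8.31 kb). Eip75B had 10, the receptor gene EcR 5 (best rank 829), Hr4 5 (best rank 1872) and Eip78C 3 (best rank 2274). Trachea and epidermis genes did in 9 of 14 cases, at 339 per Mb, with sty, the tracheal factor trh (best rank 415), the chitin-modifying enzyme gene verm (best rank 443) and the FGF gene bnl (best rank 1083) the strongest. Cytoskeleton and polarity genes did in 10 of 16, at 337 per Mb, among them the polarity genes dlg1 (best rank 330), scrib (best rank 360) and sdt (best rank 477), and Moe (best rank 478), which links actin to the membrane.

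Sarcomere genes held a summit in 8 of 18 cases, at 256 per Mb, with Prm, paramyosin, the strongest (best rank 236), then Zasp66 (best rank 779), Msp300 (best rank 909) and Tm1, tropomyosin (best rank 1931). Muscle and mesoderm factors did in 7 of 25, at 151 per Mb, among them how (best rank 491), Mef2 (4 summits, best rank 1267), eya (best rank 1749) and Pdp1 (best rank 2414). Wingless pathway genes did in 5 of 17, at 124 per Mb, with the receptor gene fz2 (best rank 321), the antagonist nkd (best rank 592), dlp and fz among them. Notch pathway genes did in 3 of 11 (mam, numb and neur) and Hedgehog pathway genes in 3 of 8 (hh, inv and ptc).

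Neuron and glia genes held a summit in 4 of 12 cases (pnt, elav, loco and nrv2) and metabolic and growth signalling genes in 4 of 15 (InR, Pdk1, sima and S6k). The lowest densities were in cell adhesion and recognition genes, with 5 of 19 genes and 65.8 per Mb, and in segmentation and Hox genes, with 4 of 19 and 74.1 per Mb. The adhesion genes were the integrin genes mew (best rank 1908) and if (best rank 2630), with Nrg, caps and Ten-a. The 4 segmentation and Hox genes were Abd-B, hry, cad and abd-A, with best ranks from 3469 to 9343.

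**Figure D5:**
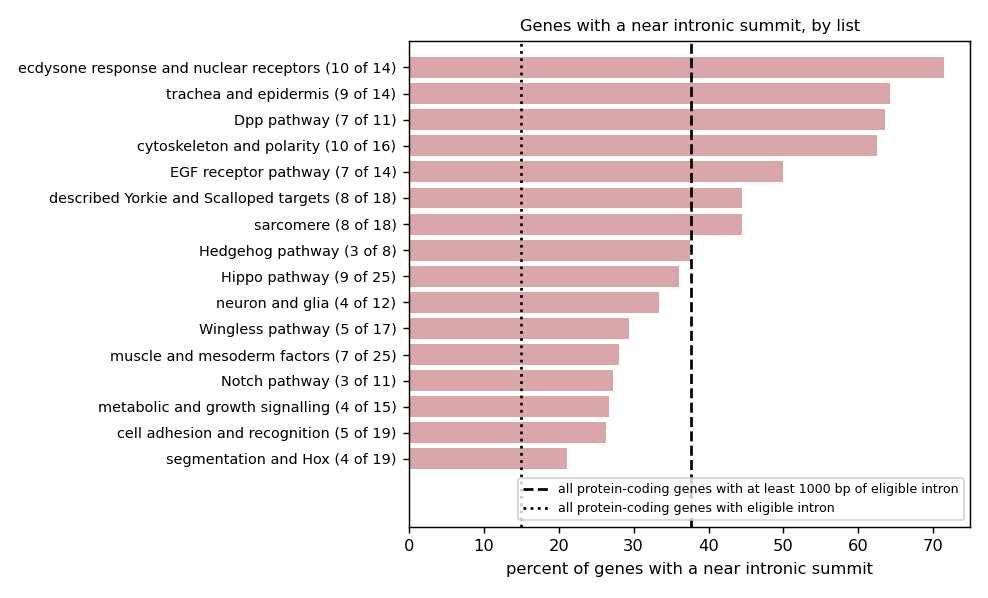
Percent of the genes with eligible intron in each list that held a near intronic summit, with the counts beside each name. Dashed, the 37.7% of all protein-coding genes with at least 1000 bp of eligible intron; dotted, the 14.9% of all with any. Ecdysone response and nuclear receptor genes lie highest (10 of 14) and segmentation and Hox genes lowest (4 of 19).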

How the data were processed

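Peak lists on dm6 were deposited for each of 3 biological replicates, for the pooled replicates and as an IDR-thresholded list. Per the file headers, 1 control alignment served every replicate; it is not analysed here. Each peak's signal value was set by the authors' peak caller and deposited with it. Aligner, peak caller and IDR threshold are not given in the sources used here. Read depth is unknown. Each replicate list held 30000 peaks.

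Positions are 1-based, on arms 2L, 2R, 3L, 3R and X and chromosome 4. Genes came from Ensembl release 115 (BDGP6.54, the same coordinates as dm6). The host of a summit was the protein-coding gene spanning it with the nearest TSS, else the noncoding gene. Both strands were searched for sites, within 100 bp of each summit and in flanks 1000 to 1200 bp away; a flank with another IDR summit within 500 bp was dropped. Shares were compared by two-sided Fisher's exact tests with Benjamini-Hochberg adjustment (threshold 0.05), which treat neighbouring peaks as independent. As replicates, the top 10553 peaks of each replicate list were used, with summits matched within 100 bp.

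Genes named were the 25 strongest by signal (1 per host), the 10 hosts with most summits (ties taken by strongest summit), up to 4 per list, and 8 Scalloped-related genes; other list genes are named after their values were seen. The class of summits, the lists and the sites were chosen with earlier results of these data known. Alternatives covered gene sets, distance bounds, windows, sites, strength and replicates. The 6-mer scan was tested on simulated data. Tests ran in scipy 1.17.1 under Python 3.11.15, with pandas 2.3.3 and numpy 2.4.6, and figures in matplotlib 3.10.9.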

Additional observations from a re-analysis of the deposited data

How the results depend on the processing

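The CATTCC and GATA results against flanks and the shares above the median signal kept their direction and their side of the threshold under every alternative run except the permuted site, and so did the GATA comparisons with far intronic, TSS and intergenic summits, whose alternatives were added after the data were seen. With flanks without exon bases, also added then, the flank ratios were 2.19 for CATTCC and 1.20 for the GATA site. The ratio of near to far intronic CATTCC shares missed the threshold with protein-coding genes only (0.892) and 50-bp windows (0.881), and that to TSS summits with a lower bound of 1000 bp (1.14) and above the median signal (1.16). For CTACTC in place of CATTCC the ratios were 0.922 to flanks, 1.04 to far intronic, 0.921 to TSS and 1.11 to intergenic summits, none past the threshold. The percent of near intronic summits with CATTCC became 22.6 above the median signal, 14.3 and 27.7 with windows of 50 and 200 bp, 8.87 for the longer site and 3.57 for CTACTC, and that with the GATA site 34.2, 19.0 and 50.3 in the first 3 of these.

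Recurrence in all 3 replicates depended on the setting. Its ratio to far intronic summits passed with an upper bound of 2000 bp (1.05), a 50-bp match (1.06) and the top peaks of replicate 1 (1.06), and was below 1 above the median signal (0.986) and in replicate 2 (0.991). The ratio to TSS summits was 0.991 with a lower bound of 1000 bp and 0.949 in replicate 1, where it passed in the opposite direction (adjusted p = 0.00711, Fisher's exact test), and passed with a ratio above 1 for peaks above the median signal (1.03), in replicate 2 (1.19) and with all deposited peaks (1.04). The ratio to intergenic summits missed the threshold with a lower bound of 1000 bp (1.07) and in replicate 1 (1.04), and was below 1 above the median signal (0.988) and with all deposited peaks (0.998). The cause was not tested.

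Leaving out a replicate kept the pooled IDR list and its signal values, to which that replicate had contributed. For sites, signal and 6-mers it only dropped summits without a match in the remaining replicate lists, so little change was possible there. Only calls of recurrence, scored over the remaining lists, changed. The recurrence ratio ran from 1.02 to 1.03 to far intronic and from 1.03 to 1.05 to intergenic summits. To TSS summits it ran from 0.960 (without replicate 1, past the threshold) to 1.04 (without replicate 2, past it). The intergenic ratio missed the threshold without replicate 1 and without replicate 3 (adjusted p = 0.156 and 0.0681, Fisher's exact tests). The number of 6-mers called stayed within 1.5 times under its alternatives. Depth is unknown, the control alignment was not analysed here and chromatin accessibility was not measured, so their part in any result was not tested. No paired analysis was possible because all samples belong to 1 group.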

Other observations

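The 6-mers that near intronic summits lacked most shared 4 letters, AGGA, when flanks with and without exon bases were pooled. The 6-mer ATCCTG or its reverse complement CAGGAT was in 0.851% of near intronic windows and in 6.75% of flanks (adjusted p = 3.9e-30, two-sided Fisher's exact test over all 6-mers). AAGGAT was in 2.19% against 7.86%, ATCCTC in 1.82% against 6.88%, AGGATC in 1.26% against 5.74% and CCAGGA in 2.19% against 7.29%. These 5 were the first by p and were picked after their values were seen. In flanks without exon bases ATCCTG was in 4.35%, in flanks with exon bases in 11.0%. At far intronic, TSS and intergenic summits it was in 1.63%, 2.23% and 2.31%.

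Near intronic summits made up 16.0% of the 25 strongest IDR peaks and 16.0% of the 100 strongest, which include those 25. They made up 24.0% of the 500 strongest, 23.5% of the 1000 strongest and 23.4% of the whole list. The counts at the top were small (4 of 25 and 16 of 100), and the difference was not tested.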
